A study of Rattus norvegicus with 12 samples.

Results

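Steroid hormone receptors are transcription factors that a steroid switches on, and the p160 coactivators are the proteins they recruit to activate transcription. The genes described here are the estrogen receptors Esr1 and Esr2, the progesterone receptor Pgr, the glucocorticoid receptor Nr3c1, the mineralocorticoid receptor Nr3c2, and the coactivators Ncoa1, Ncoa2 and Ncoa3. Every probe set of the array whose single gene symbol in the platform annotation was 1 of these 8 was taken, which gave 8 of 14218 named genes and 12 of 31042 probe sets, with 3 for Ncoa1, 2 each for Nr3c1 and Ncoa3, and 1 for each other gene. The rule used no measured value.

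RNA came from cultures of rat anterior pituitary enriched for gonadotropes, the source of luteinizing hormone (LH) and of follicle-stimulating hormone, and was measured on 12 Affymetrix Rat Expression Array 230 2.0 arrays, 1 per sample. Donors of all samples were adult female Sprague-Dawley rats whose ovaries had been removed 2 weeks before, with 13 to 15 pituitaries pooled per experiment. Large cells were collected after sedimentation, and 40 to 60% of them stained for LH per the labels, so other cell types remained in every culture. All cultures were kept in medium with 10% charcoal-stripped serum and 0.2 nM E2 (estradiol), so the vehicle samples were not free of estrogen. On day 3 the 6 GnRH samples received 10 nM gonadotropin-releasing hormone (GnRH), the hypothalamic peptide that drives gonadotropes, and the 6 vehicle samples received medium, for 40 min. Vehicle 1 and 2 and GnRH 1 and 2 came from enrichment set I, a separate cell preparation, numbers 3 and 4 from set II, and numbers 5 and 6 from set III.

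Estradiol, progesterone and glucocorticoids feed back on the pituitary, and gonadotropes are known to carry estrogen and progesterone receptors. Estrogen is known to raise Pgr transcription, and GnRH signalling is known to activate the progesterone receptor protein without its hormone. The p160 proteins bind hormone-occupied receptors and bring in histone acetyltransferases.

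The arrays fell into 2 kinds by the signal of the bacterial hybridisation spike-in controls after scaling. It was 2264 to 11705 on 5 arrays (all 4 of set I and vehicle 5) and 53482 to 320024 on the other 7. The level of bacterial sequences absent from rat, taken as the 95th percentile of 27 control probe sets and called background here, was 85.7 to 136 on the 5 and 246 to 722 on the 7. This use assumes that none of these sequences was added to the samples as a control, which was not tested. Every statement about background below rests on it. Vehicle 3 was unlike the rest: its median Spearman correlation to them was 0.336, whereas every other array had 0.618 to 0.686. The gonadotrope genes Lhb, Cga, Fshb and Foxl2 were above background on 12 of 12 arrays, Nr5a1 on 10 and the GnRH receptor gene Gnrhr on 5. Genes of other cell types were above it on 12 of 12 arrays too, namely Gh1, Prl, Pou1f1, Tshb, Anxa1, Col1a2 and Acta2. Other markers of these types were above it on fewer arrays: Ghrhr on 10, Drd2 on 6, Trhr on 8 and Dio2 on 6. Gfap and Aldh1a2 were above it on 9, S100b on 8 and Sox2 on 5. Col1a1 was above it on 11, Dcn on 8 and Pdgfrb on 4. Among corticotrope and melanotrope genes Pcsk2 was above it on 11, Tbx19 on 8 and Pomc on 6. Endothelial Esam was above it on 8, Tek on 7, Kdr on 6 and Pecam1 on 2. Erythrocyte Alas2 was above it on 5 and Hbb on 4. Of 5 leukocyte genes Fcer1g was above it on 10, Cd74 on 8, C1qa on 6, Csf1r on 4 and Ptprc on 1. In such mixed cultures, fewer cells of a type and less RNA per cell cannot be told apart.

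**Figure D1:**
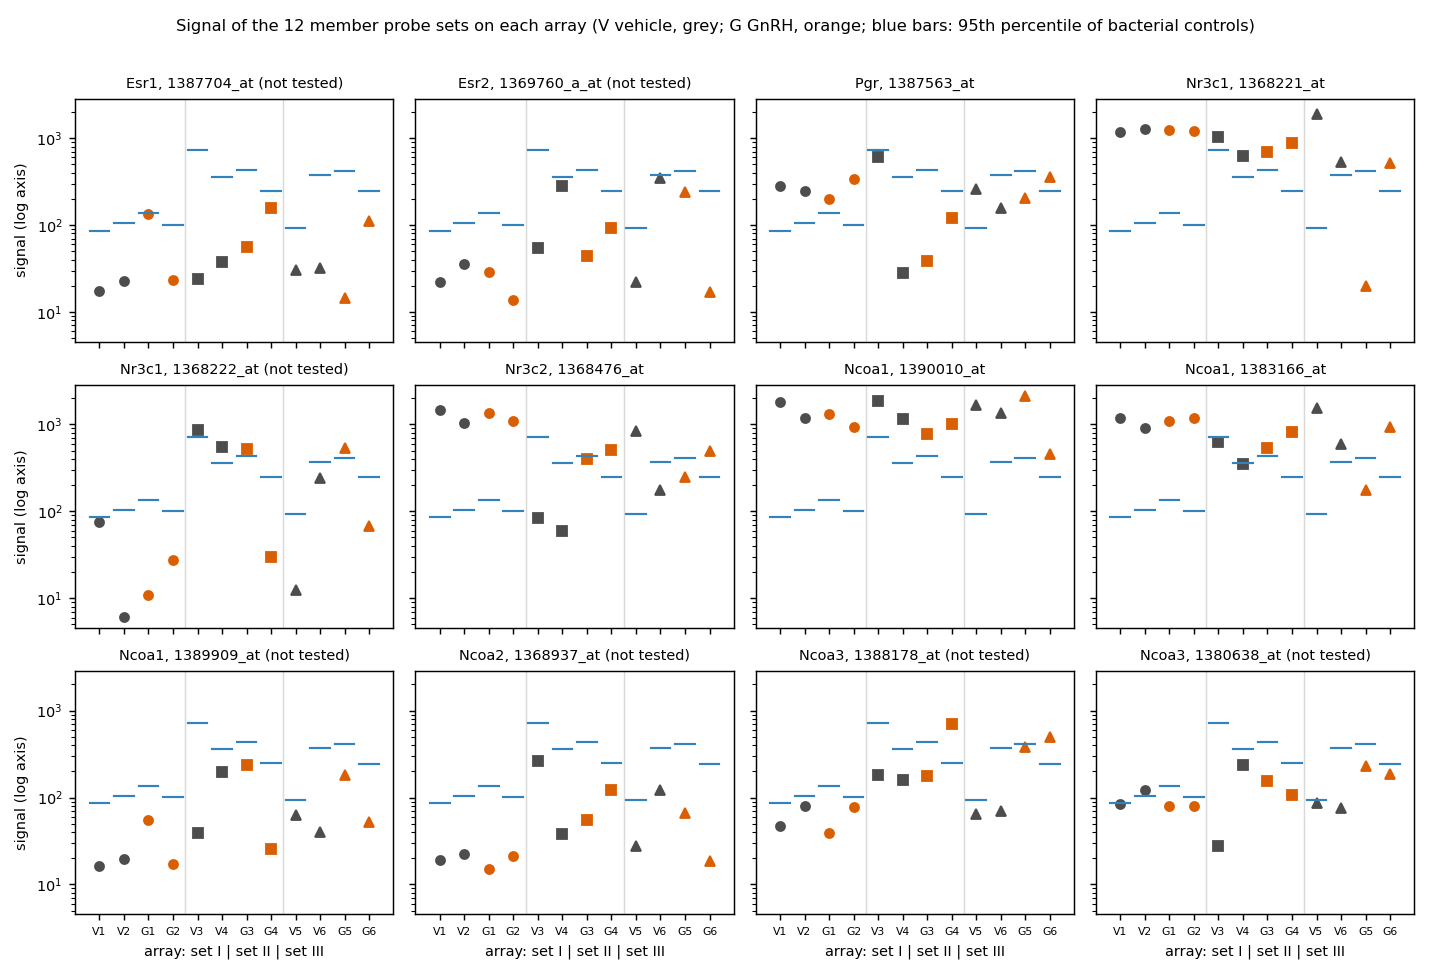
Signal (log axis) of the 12 probe sets on each array, ordered by enrichment set, with vehicle in grey, GnRH in orange and the background of each array as a blue bar. Esr1 and Esr2 lie below the bar on every array, and 1390010_at of Ncoa1 lies above it on every array.

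Of the 12 probe sets, 5 were bright enough to be tested, with a mean log2 value of at least 7.35, the 40th percentile of all probe sets. They were 1 each for Pgr, Nr3c1 and Nr3c2 and 2 for Ncoa1. The other 7, which include all probe sets of Esr1, Esr2, Ncoa2 and Ncoa3, are given as values without a test in the main comparison. Brightness depends on the probes, so levels are compared between arrays for 1 probe set at a time and not between genes.

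The estrogen receptor genes were not above background on any array. Esr1 (chr1:43511685-43904454 in GRCr8), which encodes the main pituitary estrogen receptor, had a signal of 17.3 to 37.2 on the vehicle arrays with a median of 27.2. On GnRH 1 to 6 it was 133, 23.6, 55.7, 156, 14.3 and 112. Thus 4 GnRH arrays lay above the highest vehicle array, GnRH 2 lay among the vehicle arrays and GnRH 5 below them, with all 12 values below the array's background. GnRH minus vehicle, the mean log2 values differed by 0.92, and set by set by 1.10 (I), 1.27 (II) and 0.39 (III). Shuffling agents within sets gave a two-sided exact permutation p of 0.102. No fold change is given because both groups lay under background.

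Esr2 (chr6:100589553-100645240) encodes the other nuclear estrogen receptor. Its signal on vehicle 1 to 6 was 22.2, 35.4, 54.1, 280, 21.9 and 345. On GnRH 1 to 6 it was 28.5, 13.9, 44.5, 92.2, 241 and 17.2. The groups overlapped, and the highest values were on arrays with high spike-in signal. The mean log2 values differed by -0.49 (two-sided exact permutation p = 0.463), with a negative sign in each set.

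Pgr (chr8:14354398-14413271) encodes the progesterone receptor and is a textbook estrogen target in the pituitary. Its signal on vehicle 1 to 6 was 278, 245, 609, 28.4, 260 and 156, and on GnRH 1 to 6 it was 202, 342, 38.1, 119, 206 and 355. In set I the 4 arrays lay close together and above background, whereas the set II vehicle arrays, 609 and 28.4, differed more than any other same-agent arrays of a set. Over all arrays Pgr was above background on 6 of 12, namely the 4 of set I, vehicle 5 and GnRH 6. Between agents Pgr differed by -0.19 ± 0.61 log2 units (SE, 6 arrays each; adjusted p = 0.999 in limma), a ratio of 0.879 with a 95% interval from 0.359 to 2.15. By set the values were 0.01 (I), -0.96 (II) and 0.40 (III). Without vehicle 3 it was 0.39 and without GnRH 3 it was 0.08, so its direction rested on single arrays of set II.

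The upstream stretches of 3 members are shown: Esr1, under background on every array, its textbook target gene Pgr, and Ncoa1, above background on every array by 1 probe set. They are RefSeq sequences of GRCr8, the 250 bases before an annotated transcript start, and 5 of the 8 members have such a window in the table used. The Pgr window ends just before the gene span given above. Those of Esr1 and Ncoa1 lie inside the gene spans, before an internal annotated start. Capitals mark a GC box (GGGCGG on either strand), a binding site of SP1-family factors.
Esr1, chr1:43641845-43642094, plus strand: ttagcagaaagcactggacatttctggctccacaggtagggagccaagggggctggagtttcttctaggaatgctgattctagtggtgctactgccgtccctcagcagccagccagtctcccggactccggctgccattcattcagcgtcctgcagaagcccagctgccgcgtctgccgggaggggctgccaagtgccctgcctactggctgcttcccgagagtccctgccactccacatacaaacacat
Pgr, chr8:14354148-14354397, plus strand: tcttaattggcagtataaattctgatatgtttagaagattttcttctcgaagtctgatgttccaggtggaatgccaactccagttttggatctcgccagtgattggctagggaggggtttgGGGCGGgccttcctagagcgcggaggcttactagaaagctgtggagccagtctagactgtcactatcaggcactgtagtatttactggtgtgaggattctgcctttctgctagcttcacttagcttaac
Ncoa1, chr6:33195925-33196174, minus strand: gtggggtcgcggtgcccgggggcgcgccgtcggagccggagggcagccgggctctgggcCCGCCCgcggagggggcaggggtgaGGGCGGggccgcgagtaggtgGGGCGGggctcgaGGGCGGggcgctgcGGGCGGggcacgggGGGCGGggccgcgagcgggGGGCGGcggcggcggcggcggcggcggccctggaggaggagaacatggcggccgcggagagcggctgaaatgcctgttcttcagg
The Ncoa1 window held 7 GC boxes and 82.8% G and C, the Pgr window 1 and 46.8%, and the Esr1 window 0 and 59.6%. Of 33469 windows of this length, 30.5% held a GC box. None of the 3 held the estrogen response element (GGTCA and TGACC with any 3 bases between), its core GGTCA, the glucocorticoid response element (AGAACA and TGTTCT with any 3 bases between) or the cAMP response element TGACGTCA, each searched on both strands. Of all windows 0.0239%, 35.4%, 0.012% and 1.59% held them, and the core also lies within the full estrogen element. Among the windows not shown, that of Esr2 held the core at 2 places and those of Nr3c1 did not hold it. A missing match says only that these letters are not in this window.

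Nr3c1 (chr18:31522783-31644508) encodes the glucocorticoid receptor, through which corticosteroids act on most cells. Its brighter probe set, 1368221_at, read 1174, 1263, 1028, 624, 1907 and 532 on vehicle 1 to 6. On GnRH 1 to 6 it read 1251, 1198, 695, 881, 20.1 and 513. It was above background on 11 of 12 arrays, all but GnRH 5. The groups overlapped apart from GnRH 5, whose signal was lower than every other array by a wide margin. GnRH and vehicle differed by -0.97 ± 0.61 log2 units (SE, 6 arrays each; adjusted p = 0.981 in limma), a ratio of 0.510 with an interval from 0.208 to 1.25. Sets I and II differed by 0.01 and -0.03 and set III by -2.89. Without GnRH 5 the difference was -0.25, and without vehicle 5 it was -0.51.

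The other Nr3c1 probe set, 1368222_at, gave a different picture and was too dim to be tested. It read 75.6, 6.1, 869, 555, 12.4 and 240 on vehicle 1 to 6 and 10.9, 27.6, 517, 29.8, 540 and 68 on GnRH 1 to 6. On GnRH 5, where 1368221_at was lowest, this probe set was at its highest among the GnRH arrays. It was above background on 4 of 12 arrays, all with high spike-in signal, and its log2 differences in the 3 sets were -0.39, -2.19 and 1.34.

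Nr3c2 (chr19:47619853-47964089) encodes the mineralocorticoid receptor, which binds aldosterone and, with high affinity, corticosterone. Its signal was 1477 and 1025 on vehicle 1 and 2, 84.8 and 59.4 on vehicle 3 and 4, and 839 and 176 on vehicle 5 and 6. On GnRH 1 to 6 it was 1362, 1107, 403, 508, 248 and 491. Set I was therefore high with either agent, and the set II vehicle arrays were the lowest of all 12. GnRH and vehicle differed by 0.76 ± 0.50 log2 units (SE, 6 arrays each; adjusted p = 0.981 in limma), a ratio of 1.69 with an interval from 0.817 to 3.50, with 3 vehicle and 4 GnRH arrays above background. Set I gave -0.003, set II gave 2.42 and set III gave -0.15. In set II both GnRH arrays exceeded both vehicle arrays, but vehicle 3, vehicle 4 and GnRH 3 lay below their background, so the size of that difference is uncertain.

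The Nr3c2 difference between agents was tested for dependence on the set. The interaction had an unadjusted p of 0.0463 by limma's F test and did not pass over all probe sets (limma adjusted p = 0.924). It was the 1 of 5 tested member probe sets under an unadjusted 0.05, where 5.36% of all 18625 tested probe sets were, and 0 of 5 passed adjusted, as did 0% of all.

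Ncoa1 (chr6:32952090-33229829) encodes SRC-1, the founding p160 coactivator. Its main probe set, 1390010_at, read 1805, 1181, 1865, 1145, 1674 and 1341 on vehicle 1 to 6, and 1311, 945, 773, 1002, 2128 and 454 on GnRH 1 to 6. It was above background on 12 of 12 arrays and was the 1 member probe set of which this held. Of the 6 GnRH arrays, 4 lay below the lowest vehicle array and GnRH 5 lay above the highest, so the groups overlapped. GnRH and vehicle differed by -0.57 ± 0.34 log2 units (SE, 6 arrays each; adjusted p = 0.981 in limma), a ratio of 0.675 with an interval from 0.412 to 1.10. It was negative in each set, at -0.39, -0.72 and -0.59. Among the 5 tested member probe sets it was the 1 lower in each of 3 sets, which also held for 11.4% of all tested probe sets, and 0 were higher in each, against 12.6%. Leaving out GnRH 5 gave -0.84 and leaving out GnRH 6 gave -0.29.

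The other Ncoa1 probe sets did not repeat this direction in each set. 1383166_at read 1175, 902, 629, 348, 1537 and 600 on vehicle 1 to 6 and 1103, 1196, 531, 822, 174 and 923 on GnRH 1 to 6. Agents differed by -0.19 ± 0.43 log2 units (SE, 6 arrays each; adjusted p = 0.993 in limma), made up of 0.16 (set I), 0.48 (set II) and -1.21 (set III). GnRH 5 was its lowest array and the highest array of 1390010_at, and without GnRH 5 its difference was 0.23. The dim probe set 1389909_at, at 16.4 to 240, was above background on 0 of 12 arrays.

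Ncoa2 (chr5:10618712-10852776), which encodes the p160 coactivator GRIP1, was above background on 0 of 12 arrays. Its signal was 19 to 266 on vehicle arrays, with a median of 33.1, and 15.1 to 124 on GnRH arrays, with a median of 38.3. The mean log2 values differed by -0.32 (two-sided exact permutation p = 0.537).

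Ncoa3 (chr3:175157824-175237831) encodes the p160 coactivator also called AIB1. Its brighter probe set, 1388178_at, read 46.7, 80.1, 179, 159, 64.1 and 70.8 on vehicle 1 to 6 and 39.2, 78.5, 175, 699, 386 and 498 on GnRH 1 to 6. The 3 highest values were GnRH 4, 5 and 6, and 2 of them, GnRH 4 and GnRH 6, were above background. The mean log2 values differed by 1.11 (two-sided exact permutation p = 0.12), from -0.10 in set I to 1.00 in set II and 2.45 in set III. No fold is given because every vehicle value lay under background. In set III, vehicle 6, GnRH 5 and GnRH 6 all had high spike-in signal and read 70.8, 386 and 498, while vehicle 5, at 64.1, had low signal. Over all arrays this probe set read 39.2 to 80.1 on the 5 low arrays and 70.8 to 699 on the 7 high ones. The other probe set, 1380638_at, was above background on 1 array and differed by -0.31, 0.46 and 1.21 in the 3 sets.

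Taking the members as a group, 0 of the 5 tested probe sets passed for GnRH against vehicle by limma over all 18625 probe sets, of which 0.00537% passed in either direction. At an unadjusted p under 0.05 there were also 0 of 5, against 3.45% of all (1.87% higher and 1.58% lower), and by the exact within-set permutation test 0 of 5, against 4.46% of all. The GnRH and vehicle arrays overlapped for all 5, while 0.0537% of tested probe sets were higher without overlap and 0.0537% lower. Of the 4 tested genes, 1 was higher and 3 were lower in GnRH samples, with a median log2 difference of -0.38, against a median of 0.04 over all 10680 genes tested. The study called a gene up-regulated at a fold of 1.50 or more, given that no fewer than 50% of array pairs concurred. Rebuilt on log2(signal + 16) without the software's change calls, that criterion was met upward by 1 of the 5 tested probe sets, Nr3c2, and by 7.62% of all tested probe sets. Nr3c2 sat at the limit, with 50% of its 36 GnRH-vehicle pairs reaching 1.50-fold. Among untested probe sets Esr1 and 1388178_at of Ncoa3 met it too, with 61.1% and 63.9% of pairs, on signals mostly under background. None of the 5 tested met its mirror image for lower values, against 7.6% of all tested, and none of the 7 untested met it. The share of all untested probe sets that met the criterion in either direction was not computed.

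**Figure D2:**
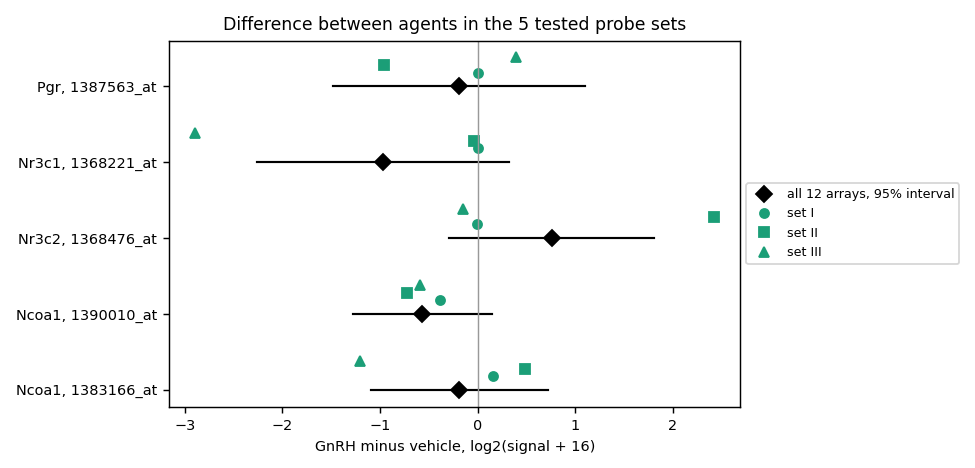
Difference between GnRH and vehicle on the log2(signal + 16) scale for the 5 tested probe sets, with diamonds and lines for the estimate and 95% interval over 12 arrays and green marks, offset upward, for each set. Every interval includes 0, and the sets agree in sign only for 1390010_at of Ncoa1.

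Among the members, the test of baseline level between preparations had its smallest p for Nr3c2. Over the 6 vehicle arrays alone its mean log2 level was 10.28, 6.45 and 8.66 in sets I, II and III (n = 2 per set). The fitted set II minus set I was -3.84 ± 0.86 (SE, log2; limma adjusted p = 0.174), but both set II vehicle signals lay under background, so its size was not measured. With these 2 arrays raised to their background level the difference was -1.24. Leaving out 1 vehicle array at a time gave limma adjusted p-values for this contrast from 0.0332 (without vehicle 4) to 0.860 (without vehicle 1). Without vehicle 4, set II was vehicle 3 alone, assumed to vary like the other sets, and the F test over sets still called 0 members. The F test over sets gave an unadjusted p of 0.00516 by limma and did not pass (limma adjusted p = 0.362). Among members it was the 1 of 5 under an unadjusted 0.05, against 12.8% of all tested probe sets, and 0 of 5 passed adjusted, as did 0% of all. For the other 4 tested probe sets the same F test gave unadjusted p-values from 0.225 to 0.997 and did not pass (limma adjusted p of 0.566 or more). Set II minus set I was -1.11 ± 0.65 for 1383166_at of Ncoa1 and 0.001 ± 0.53 for 1390010_at.

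With all 12 arrays and the agent in the model, Nr3c2 differed between sets (limma adjusted p = 0.0395), as did 6.02% of all tested probe sets, and the other 4 member probe sets did not pass (limma adjusted p from 0.256 to 0.95). The fitted set II minus set I was -2.62 on the log2 scale (limma adjusted p = 0.0156), with the same limit on its size. Spike-in level and set went together. On the 5 arrays with low spike-in signal Nr3c2 read 839 to 1477, and on the 7 with high signal 59.4 to 508, without overlap. No ratio is given, because 5 of those 7 values lay under a background that was itself higher on these arrays. Within set III the same held, with 839 on vehicle 5 against 176 to 491 on the other 3 arrays. With the spike-in level added to the model, which was decided after seeing the data, the set II minus set I difference was -1.08 and did not pass (limma adjusted p = 0.696). Of the marker genes of gonadotropes and other cell types, 2 of 32 tested differed between sets in the 12-array model, against 6.02% of all tested probe sets. They were 1 corticotrope and melanotrope gene and 1 fibroblast and pericyte gene. None of the gonadotrope or of the somatotrope and lactotrope markers passed. The summed signal of 6 gonadotrope markers was 64561 to 99800 in set I, 250475 to 473414 in set II and 32142 to 494334 in set III, and consisted mostly of Cga and Lhb. Of these 6 markers, 3 (Lhb, Fshb and Cga) were higher on every set II array than on every set I array, 1 (Gnrhr) was lower, at 70.4 to 230 against 291 to 469, and 2 overlapped. The sum of 5 somatotrope and lactotrope markers was 74839 to 118936, 547895 to 1170180 and 36649 to 658311 in sets I, II and III, with Gh1 and Prl higher in set II, Pou1f1 lower and 2 overlapping. Of the markers of other cell types, Acta2 and Fcer1g were also higher on every set II array than on every set I array. The rest overlapped. The part of these cell types in the Nr3c2 difference was not tested.

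Nr3c1 shared this split. Its probe set 1368221_at read 1174 to 1907 on the 5 arrays with low spike-in signal and 20.1 to 1028 on the 7 others, again without overlap. So 2 of the 5 tested member probe sets were higher on every low array than on every high one, against 6.75% of all tested probe sets, and 0 were lower on every low array, against 3.54%. 1383166_at of Ncoa1 nearly separated the arrays, at 902 to 1537 on the 5 and 174 to 923 on the 7. Pgr and 1390010_at overlapped, at 202 to 342 against 28.4 to 609 for Pgr and 945 to 1805 against 454 to 2128 for 1390010_at.

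**Figure D3:**
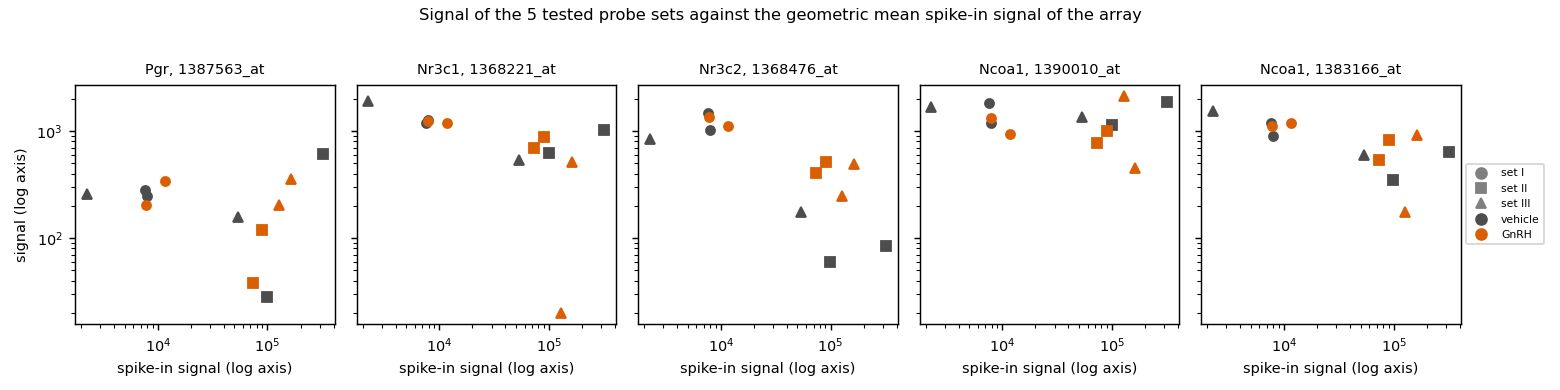
Signal of the 5 tested probe sets (log axis) against the geometric mean spike-in signal of each array (log axis), by agent (colour) and set (marker). Nr3c2 and 1368221_at of Nr3c1 are higher on the 5 arrays at the left than on the 7 at the right.

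The genes whose pattern was most like that of each member were found by Pearson's r of log2 values centred on the set mean over the 12 arrays, among 10679 other genes. For Pgr they were Ppp1r12c (r = 0.95) and Rhpn2 (0.93). For Nr3c1 they were Fads1 (0.98) and Mgat4b (0.97), for Nr3c2 Exosc9 (0.98) and Actl6a (0.98), and for Ncoa1 Tnfsf13 (0.96) and Pygl (0.92). Nr3c1 read 20.1 on GnRH 5 and 513 to 1907 on every other array, so that array weighs heavily in its coefficients. The arrays share technical differences such as the spike-in level, and the highest of so many coefficients are large by selection, so these are descriptions without a test.

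Other genes of steroid signalling were read from lists, each gene by its brightest probe set. Among the other receptors, 3 of 4 tested were higher and 1 lower in GnRH samples, with 0 passing. Pgrmc1 and Pgrmc2, membrane-associated progesterone receptor components, differed by 0.38 ± 0.30 and 0.13 ± 0.23 (log2, SE, n = 6 per group throughout the lists), and the orphan estrogen-related receptor Esrrb by -0.41 ± 0.46. Among 14 other coactivators, 11 were higher and 3 lower, and 0 passed by limma or at an unadjusted p under 0.05. The histone acetyltransferase genes Crebbp, Kat2a and Kat2b, whose products join p160 complexes, differed by 0.38 ± 0.33, 0.55 ± 0.51 and 0.41 ± 0.38. Kat2a read 69.7 on vehicle 3, under the background there, and 235 to 1006 on every other array. The median of that list was 0.13, against 0.04 over all genes tested, of which 54.6% were higher.

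Corepressors were balanced, with 5 of 10 higher. Nrip1, which encodes the estrogen-inducible corepressor RIP140, differed by -1.30 ± 0.61, and by -0.26 (set I), -0.63 (set II) and -3.01 (set III). It was above background on 6 arrays. Every set II array lay under background, as did GnRH 5 and GnRH 6, at 38.5 and 59.9. The sizes of the set II and set III differences, and of the difference over all arrays, are therefore uncertain. Nrip1 was the 1 corepressor with an unadjusted p under 0.05 by limma and did not pass over all probe sets (limma adjusted p = 0.981). Among all 10680 genes tested, 192 were higher and 159 lower at an unadjusted p under 0.05 by limma. Hdac1, a histone deacetylase, differed by 0.66 ± 0.37, and Nr0b1, the DAX1 repressor of gonadotropes and steroidogenic cells, by 0.47 ± 0.55. Of 8 chaperones and co-chaperones of unliganded receptors, 4 were higher and 0 passed by limma, adjusted or unadjusted. St13, Bag1 and Ptges3, which encode the HSP70-interacting protein, a BAG co-chaperone and p23, differed by -0.40 ± 0.24, 0.36 ± 0.30 and 0.63 ± 0.63. Ptges3 read 68.7 on vehicle 3, under the background there, and 765 to 5621 on every other array. By set it differed by 0.19 (I), 2.46 (II) and -0.75 (III). Of 5 steroid-metabolising enzymes, 2 were higher and 0 passed by limma, adjusted or unadjusted. Hsd11b1, which regenerates active glucocorticoid, differed by 0.64 ± 0.55, the peroxisomal enzyme gene Hsd17b4 by 0.38 ± 0.38, and the aromatase gene Cyp19a1 by -0.28 ± 0.49. By set Hsd11b1 differed by 0.03 (I), 2.34 (II) and -0.46 (III). On vehicle 3 and vehicle 4 it read 282 and 72.1, under the background there, so the size of the set II difference is uncertain. Hsd17b4 read 157 on vehicle 3, under the background there, and 890 to 1872 on every other array.

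Known target genes of these receptors gave no adjusted call either. Of 12 estrogen-responsive genes, Pgr and Nrip1 included, 6 were higher and 6 lower, and Nrip1 was the 1 with an unadjusted p under 0.05 by limma. The size of the Nrip1 difference is uncertain, as stated above. The growth factor binding protein gene Igfbp4 differed by 0.63 ± 0.46 and the lysosomal protease gene Ctsd by 0.37 ± 0.28. Igfbp4 read 68.2 on vehicle 3, under the background there, and 530 to 1475 on every other array. By set it differed by 0.32 (I), 1.53 (II) and 0.05 (III). Of 13 glucocorticoid-responsive genes, 8 were higher and 5 lower, with 1 in each direction at an unadjusted p under 0.05 by limma. Among all 10680 genes tested, 192 higher and 159 lower genes lay under 0.05, and 54.6% were higher at any p. Errfi1, whose product MIG6 restrains EGFR signalling, differed by 0.86 ± 0.23. Cebpd, a C/EBP transcription factor gene, differed by -1.10 ± 0.44, between -0.28 in set I and -2.01 in set III. It was above background on 7 of 12 arrays. GnRH 5 and GnRH 6, at 48 and 123, lay under it, so the size of the set III difference is uncertain. Cdkn1a, the p21 cell cycle inhibitor gene, differed by 0.92 ± 0.55. It read 75.1 on vehicle 3, under the background there, and 946 to 2941 on every other array. By set Cdkn1a differed by 0.14 (I), 2.25 (II) and 0.36 (III). Errfi1, Cebpd and Cdkn1a all had a limma adjusted p of 0.981.

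**Figure D4:**
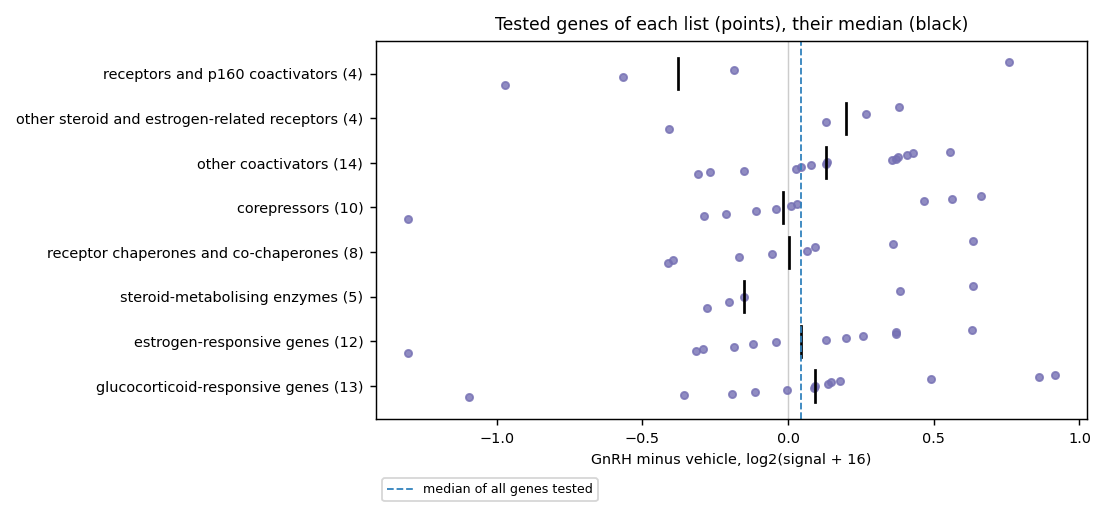
GnRH minus vehicle difference on the log2(signal + 16) scale for each tested gene (points) of the 8 lists, with the number of tested genes in brackets, the list median in black and the median of all genes tested as a dashed line. The list medians lie between -0.38 for the receptors and p160 coactivators and 0.20 for the other receptors, and no gene passed over all probe sets.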

How the data were processed

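Signals of 12 arrays were analysed. The authors deposited probe set intensity values on a linear scale from the GCOS software, per the series' design text, and its version is not given in the sources used here. Amplification ran through a pair of T7 rounds, per the labels' protocols, which favours the 3' ends of transcripts. The log2 ratio of the 3' to the 5' control probe set of Gapdh was 4.48 to 5.45 on set I arrays. On the others it was 2.96 to 4.37. For beta-actin the ranges overlapped, at 4.16 to 4.82 and 2.45 to 4.90. The part of these ratios in the differences between sets was not tested. The deposited trimmed means were 497 to 499 on all arrays, so values had been scaled before deposit. Scanner files and detection calls were not used here.

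Signals were brought to a common trimmed mean of 500 per array (2% off each end, 57 control probe sets left out), 16 was added, and log2 was taken. Folds of dim genes are therefore understated. Probe sets at or above the 40th percentile of mean log2 (18625) were tested in limma 3.58.1 under R 4.3.3 with set and agent in the model and an intensity trend, with Benjamini-Hochberg adjustment over all of them at 0.05. Moderated F tests compared sets over vehicle arrays and tested the interaction of agent and set. Exact permutation tests shuffled agents within sets, where the smallest possible p is 0.00926. The fit of GnRH against vehicle was tried on simulated data. A gene's brightest probe set represents it in the lists.

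Of the non-control probe sets, 20826 carry 1 gene symbol, 436 several and 9780 none. All 8 members were found by Entrez identifier in the RefSeq table of GRCr8, and gene coordinates are from it. Probe sets were not aligned. The members and lists were chosen with earlier results of these data known. Named genes are all member probe sets, up to 3 genes with the smallest p per list, and the 2 genes most like each tested member. The labels number samples as biological replicates, but nothing says that wells of 1 preparation were separate cultures, so p-values measure the spread between these samples, which may be technical. The number of arrays limits the precision. No further per-sample column was set aside. Alternatives covered scaling, pseudocount, filter, array weights, spike-in level, blocks, single sets and leaving out arrays.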

Additional observations from a re-analysis of the deposited data

Results flagged for a closer look

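The Nr3c1 probe set 1368221_at on GnRH 5 read 20.1, while the other 5 GnRH arrays read 513 to 1251. The gap to the nearest array was 0.755 of the range of the group on the log2 scale, above Dixon's 95% critical value for 6 values. It was the 1 of 24 groups of member values (12 probe sets and 2 agents) that exceeded it, and chance gives about 1 in 20. Without GnRH 5 the Nr3c1 difference was -0.25 in place of -0.97. No interaction of agent and set passed for a member.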

How the results depend on the processing

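The count of members called for GnRH against vehicle was 0 in 28 of 29 alternatives, among them quantile scaling, other pseudocounts and filters, array weights, the spike-in level as a covariate, each set alone and each array left out in turn, with 1 under the study's criterion (Nr3c2). Over these alternatives the lowest limma adjusted p of the 5 probe sets was 0.648. Same-numbered arrays of a set did not deviate together (correlations of -0.0286, -0.0262 and -0.138 in sets I, II and III). With the replicate number as a block the count was 0, Nr3c2 stayed at 0.76, and the block changed no call. No interaction passed in any of 21 alternatives. Vehicle levels differed between sets for 2 members, Nr3c2 and Pgr, without vehicle 3 and vehicle 5, where 35.9% of all tested probe sets also passed on 4 arrays with 1 residual degree of freedom, and for 1, Nr3c2, over all 12 arrays.

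Some differences changed sign with the setting, and the cause was not tested. For GnRH against vehicle, Pgr (-0.19 over all arrays) was 0.090 with array weights, 0.48 without vehicle 3 and vehicle 5, 0.0093 in set I alone and 0.40 in set III alone. 1383166_at of Ncoa1 (-0.19) was 0.049 with array weights, 0.057 with the spike-in covariate, 0.17 without vehicle 3 and vehicle 5, and 0.16 and 0.48 in sets I and II alone. Nr3c1 (-0.97) was 0.0073 in set I alone, and Nr3c2 (0.76) was -0.0030 and -0.15 in sets I and III alone. With each array left out the ranges were -0.57 to 0.39 for Pgr, -1.22 to -0.25 for Nr3c1, 0.50 to 1.14 for Nr3c2, -0.84 to -0.29 for 1390010_at and -0.38 to 0.23 for 1383166_at.

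For vehicle levels, 1390010_at gave set II minus I and set III minus I of -0.35 and -0.12 without vehicle 3 and vehicle 5, -0.17 and -0.067 over 12 arrays, and -0.093 and -0.025 with the spike-in level added. With that level Nr3c1 gave 1.05 and 1383166_at 0.030 for set II minus I. Leaving out 1 vehicle array, set II minus I ranged from -2.64 to 1.17 for Pgr and -0.35 to 0.35 for 1390010_at. Set III minus I ranged from -1.17 to 0.64 for Nr3c1, -0.27 to 0.34 for 1390010_at and -0.76 to 0.57 for 1383166_at.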
